A study of Mus musculus with 56 samples.

Results

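Lungs of mice killed 4 h after an intravenous injection of oleic acid (OA) were compared with lungs of mice killed 3 h after the same injection. The members were taken from the sample titles, which give time and mouse, and were 21 microarrays of 11 mice, among 51 OA microarrays of 27 mice and 60 microarrays in all. The 4 h group held 4 mice on 8 microarrays and the 3 h group held 7 mice on 13 microarrays. All were female C57Bl/6J mice, 7 weeks old, anesthetized with xylazine and ketamine and given OA in the tail vein. Total RNA of the smallest lung of each mouse was turned into 33P-labelled cDNA and hybridized to nylon membranes that carry amplified mouse cDNA clones, and most mice were measured on 2 membranes. The labels of 1 microarray of the 3 h mouse P7L3 disagree between 3 h and 1.5 h, and its title was followed. The mouse code of P4L1, 1 of the 4 mice at 4 h, also stands in the title of a microarray labelled 1.5 h, which belongs to neither group here and was not assigned to a mouse. No serum-injected mice killed at 4 h were analysed here, so 3 h and 4 h were set against each other directly.

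OA carried to the lung by the blood injures the capillary wall, and protein-rich fluid and neutrophils then enter the alveolar space. In such an acute injury, early response genes and cytokines are transcribed first. Transcripts induced by stress hormones, metals and oxidants typically follow, among them the metallothioneins, which bind zinc and copper, the heat shock proteins, which hold other proteins in shape, and the enzymes that make and use glutathione. The comparison asks how far the lung moves along that sequence within 1 h.

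Levels are log2 intensities quantile-normalized by the study, averaged over the microarrays of a mouse, and a difference of 1 is a doubling of signal. Of 9984 spots, 7625 carried a named clone, from 5883 genes. A clone was called bright when its mean over the 11 mice was above 9.19, and 2339 clones were bright. This threshold is the mean over the mice of the level under which 95% of the empty spots of a microarray lay. That empty-spot level had a median of 9.39 on the 3 h microarrays (8.54 to 10.01) and of 8.95 on the 4 h microarrays (8.78 to 9.27). Scanner signal before normalization had medians between 7.20 and 8.76 on the 3 h microarrays and between 7.81 and 8.80 on the 4 h microarrays (log2). The labelled tissue showed its markers. Surfactant protein Sftpd had a mean level of 13.55 ± 0.16 (SD, n = 7) at 3 h and 13.65 ± 0.11 (n = 4) at 4 h, and the endothelial cadherin Cdh5 one of 12.44 ± 0.23 and 12.44 ± 0.34.

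No clone passed the test between 4 h and 3 h. In limma's test with Benjamini-Hochberg adjustment over 7625 clones, 0 were called at an adjusted p under 0.05 (percent called 0), and the lowest adjusted p was 0.994. At an unadjusted p under 0.05 there were 187 clones higher at 4 h, or 2.45% of those tested, and 109 lower, or 1.43%. Among bright clones the corresponding counts were 63 and 44 of 2339. Every 4 h mouse lay above every 3 h mouse for 18 clones (0.236%), and every 4 h mouse lay below for 15 (0.197%). Only 3 of the former were bright, Vkorc1, Hadh2 and Keap1, and 7 of the latter. Hadh2 passed the bright threshold only through its 4 h mean.

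The measurement was nevertheless precise enough to bound most bright clones. The 95% interval of the difference lay within 1 log2 unit of 0 for 2267 of 2339 bright clones (96.9%), and within 1.5-fold for 1891 (80.8%). The median half-width of that interval was 0.30. Mouse means correlated across bright clones with a median Pearson's r of 0.930 between the times (0.893 to 0.971, 28 pairs), 0.936 within 3 h (21 pairs) and 0.925 within 4 h (6 pairs). These are correlations across clones, which are not independent. The median SD between 2 microarrays of 1 mouse was 0.22, next to 0.23 between mouse means of 1 time.

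**Figure D1:**
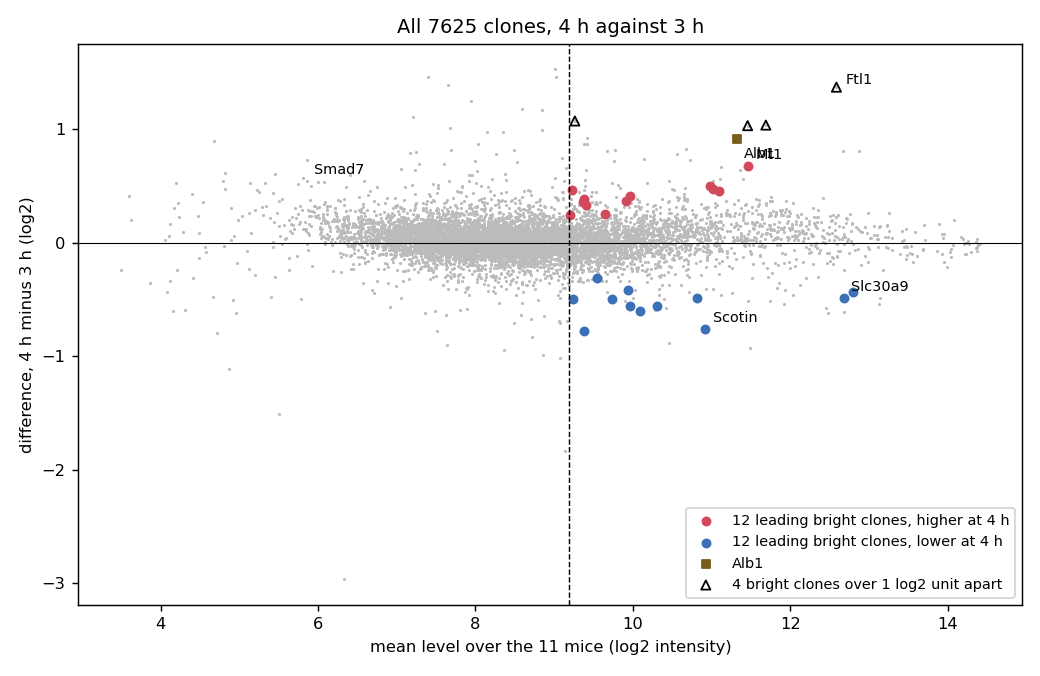
Difference between 4 h and 3 h (log2, y axis) against the mean level over the 11 mice (log2 intensity, x axis) for each clone, with the bright threshold as a dashed line. Most of the 2339 bright clones lie within 1 log2 unit of 0, and the 4 outside it (triangles) come from 1 displaced print block.

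A clone of Mt1 and a clone of Mt2, both metallothioneins, were among the leading clones on the higher side. Mt1, which has 2 clones, and Mt2, which also has 2, encode small cysteine-rich proteins that hold zinc and copper. At spot 6004, Mt1 lay at 11.92, 12.21, 11.62 and 11.84 in the 4 h mice P4L1, P11L2, P12L3 and P13L3. In the 7 mice at 3 h its lowest level was 10.86, its median 11.19 and its highest 11.76. The groups overlapped in 1 pair, the highest 3 h mouse, P7L3, lying above the lowest 4 h mouse, P12L3. The mean difference was 0.67 ± 0.17 (SE, n = 4 and 7), or 1.60-fold, with an unadjusted p = 0.0018 in limma and an adjusted p = 0.994, so Mt1 was not called. An exact two-sided permutation test of this clone gave p = 0.0091, and p = 0.053 after adjustment over the 7 clones of genes chosen singly. These genes were chosen with earlier results of these data known, which the adjustment does not take into account. Mt1 was 0.61 higher at 4 h among the mice of L1, 1.34 among those of L2 and 0.34 among those of L3, the number after L being part of the mouse code and left unexplained in the labels. The 8 spots around this one had a mean difference of 0.16, all 8 of them above 0.

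Mt2 at spot 5103 showed the same order with more overlap. It lay at 11.38, 11.80, 10.89 and 11.10 in the 4 h mice, against a 3 h range from 10.47 to 11.17 with a median of 10.73. The difference of 0.50 ± 0.18 had an unadjusted p = 0.014 in limma and was not called (adjusted p = 0.994). Its 8 neighbours had a mean difference of -0.07, with 1 above 0.

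The second clones of both genes read differently in 1 mouse. Mt1 at spot 3910 had a mean of 10.83 ± 0.31 at 3 h and 10.81 ± 0.81 at 4 h, and Mt2 at spot 4687 had 11.55 ± 0.39 and 11.59 ± 0.56. Both rest on 2 microarrays of mouse P11L2 that disagreed by over 3 log2 units: Mt1 read 7.69 on 1 and 11.61 on the other, and Mt2 9.14 and 12.53. On the same pair of microarrays the clones at spots 6004 and 5103 agreed, at 12.28 and 12.13 for Mt1 and at 11.87 and 11.74 for Mt2. With P11L2 taken from the second microarray alone, an alternative chosen after seeing the data, the 4 metallothionein clones were 0.66, 0.47, 0.49 and 0.46 higher at 4 h (Mt1 at 6004 and 3910, Mt2 at 5103 and 4687). None was called in that fit.

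The level of metallothioneins at both times was high compared with earlier and later OA mice. Mt1 at spot 6004 had a mean of 9.68 ± 0.62 (n = 4) at 1 h, 10.01 ± 0.32 (n = 6) at 1.5 h, 9.53 ± 0.29 (n = 3) at 18 h and 9.98 ± 0.04 (n = 3) at 24 h. The 4 h mice were the highest group of the 6 times for Mt1 at 6004 and Mt2 at 5103. The 2 serum microarrays at 3 h, normalized together with the OA microarrays, read 10.77 and 9.47 for this Mt1 clone, where the OA means were 11.13 at 3 h and 11.86 at 4 h.

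**Figure D2:**
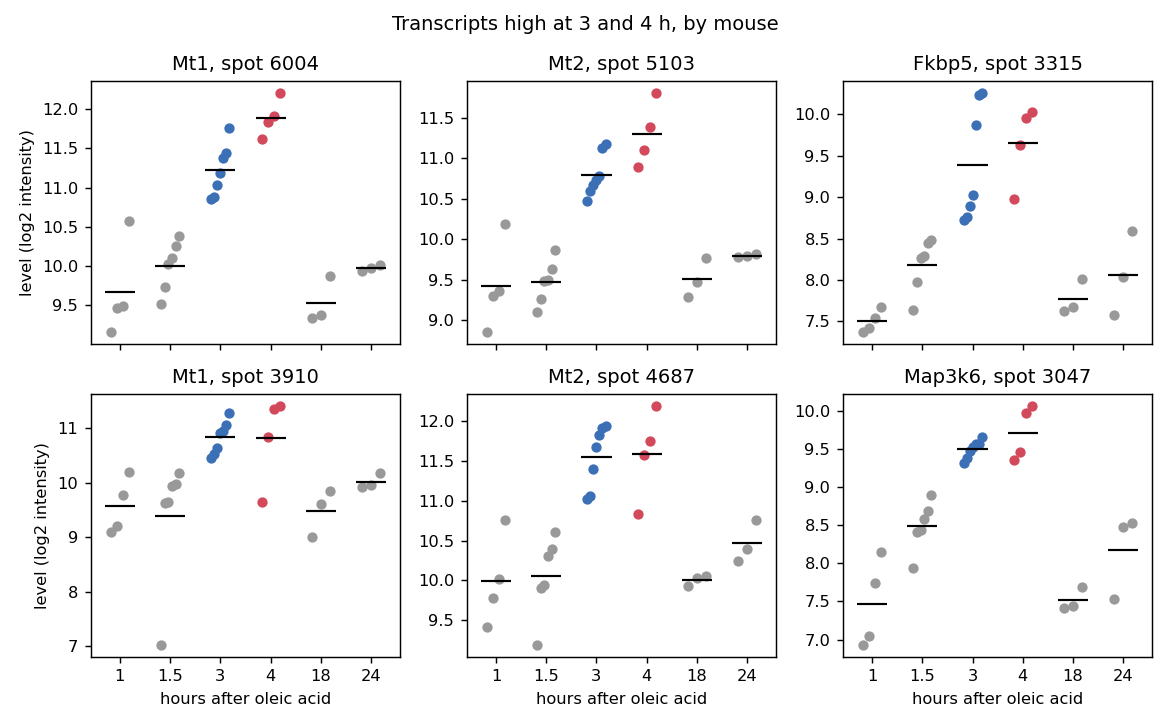
Level of 6 clones (log2 intensity, y axis) by hours after OA (x axis), 1 point per mouse and a bar at the mean, with 3 h in blue and 4 h in red. All 6 stand high at 3 h and 4 h, and the low 4 h mouse of Mt1 at spot 3910 and Mt2 at spot 4687 is P11L2, whose 2 microarrays disagree.

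Fkbp5 and Map3k6, which are also high at these times, did not pass the test. Fkbp5, a co-chaperone of the glucocorticoid receptor that glucocorticoids induce, lay at 9.63, 10.02, 9.96 and 8.98 at 4 h, within the 3 h range from 8.72 to 10.26. The 3 h mice themselves spread over more than 1 log2 unit, with a median of 9.02. The difference was 0.25 ± 0.34 (unadjusted p = 0.465 in limma). Map3k6, a kinase upstream of stress-activated MAP kinases, lay at 9.97, 10.07, 9.36 and 9.47 at 4 h and between 9.32 and 9.66 at 3 h. Its difference was 0.22 ± 0.14 (unadjusted p = 0.136 in limma). The 2 high 4 h mice are P4L1 and P11L2, and the other two lay within the 3 h range.

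The cytokines Il10 and Il4, which restrain inflammation or steer it toward antibody responses, read below the bright threshold. Their level cannot be told from that of empty spots. Il10 had means of 6.46 at 3 h and 6.69 at 4 h, and Il4 of 6.10 and 6.09. Exact permutation tests gave p = 0.152 for Il10 and p = 0.958 for Il4. Smad7, an inhibitor of TGF-beta signaling, was also below the bright threshold. It had a mean of 5.66 ± 0.24 at 3 h and 6.21 ± 0.27 at 4 h, a difference of 0.55 ± 0.15 with an exact p = 0.015, which after adjustment over the 7 clones was 0.053. Tnf and Il6 have no clone of that name in the spot list.

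Besides the metallothioneins, the 12 leading bright clones on the higher side encode proteins of several kinds. They are named by lowest unadjusted p because none was called. Vkorc1, the vitamin K epoxide reductase that recycles vitamin K, lay at 9.59, 9.68, 9.62 and 9.60 at 4 h. At 3 h it reached from 9.09 to 9.52 with a median of 9.28, so the groups did not overlap, and the difference was 0.33 ± 0.09 (unadjusted p = 0.0025 in limma). Hadh2, a mitochondrial dehydrogenase now named Hsd17b10, did not overlap either, with a difference of 0.25 ± 0.08. Its 3 h mean of 9.12 lay below the bright threshold of 9.19, which it passed only through its 4 h mean of 9.365. The microarrays of P12L3 read 9.04 and 9.64 for Hadh2, where the highest 3 h mouse lay at 9.32. Under other settings the difference of Hadh2 was as low as 0.14. Gsta3, a glutathione S-transferase, was between 9.19 and 9.37 at 3 h. It lay at 9.29, 9.66, 9.84 and 9.72 at 4 h, so that 3 of 4 mice were above that range, and the difference was 0.38 ± 0.10. The 3 h means of Vkorc1, Gsta3 and Hadh2, 9.29, 9.25 and 9.12, lay under 9.39, the median empty-spot level of the 3 h microarrays. Spp1, the secreted phosphoprotein osteopontin, was 0.41 ± 0.12 higher. A pair of chaperones was among them, the constitutive cytosolic Hsp90ab1 with 0.48 ± 0.15 and the small heat shock protein Hspb8 with 0.46 ± 0.17. The 3 h mean of Hspb8, 9.06, also lay below the bright threshold. The others were the RNA helicase Dhx15, the ESCRT subunit Chmp2a, the COPII coat protein Sec23b and the nutrient-sensing GTPase Rragc.

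The leading bright clones on the lower side described here, 11 in number, differed by -0.31 to -0.76. Tcf19, a growth-associated nuclear protein, lay at 9.62, 9.31, 9.76 and 9.74 at 4 h, below all 7 mice at 3 h, which reached from 10.02 to 10.68. Its difference of -0.56 ± 0.14 had the lowest unadjusted p among all clones, 0.0013 in limma. The microarrays of P11L2 read 8.63 and 10.00 for Tcf19. Trp53bp2, which binds p53, and the endosomal kinesin Kif16b also did not overlap, with differences of -0.49 ± 0.13 and -0.50 ± 0.14. Scotin, a membrane protein of the endoplasmic reticulum now named Shisa5, had a mean of 11.20 ± 0.24 at 3 h and 10.44 ± 0.47 at 4 h. The 2 microarrays of P4L1 read 8.87 and 11.42 for Scotin, and those of P13L3 8.54 and 11.36. With both mice taken from the second of these alone, an alternative chosen after seeing the data, the mean of Scotin at 4 h was 11.11 and the difference -0.09 ± 0.16 (unadjusted p = 0.581 in limma). The remaining clones were those of Dnajc10, Ildr1, Brf2, Dst, Kpna3, Slc30a9 and Pcp4l1, and none of them was called. Ildr1 passed the bright threshold only through its 3 h mean, and its 4 h mean was 8.93. For the zinc transporter Slc30a9, P13L3 read 10.66 on 1 microarray and 13.18 on the other, and its difference of -0.48 was -0.17 without the first.

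The leading differences were computed again with each of the 20 microarrays of the mice measured on 2 left out in turn, also chosen after seeing the data. No clone was called in any of these fits. Among the clones described here, besides Scotin, Slc30a9 and 2 clones near 0 (Mt1 at spot 3910 and Il4), the difference moved by over 1.5 times for Ildr1 (-0.49 to -0.31 without a microarray of P13L3), Kif16b (-0.50 to -0.32 without one of P12L3), Sec23b (0.25 to 0.16 without one of P12L3) and, below the bright threshold, Il10 (0.23 to 0.15). Mt1 at spot 6004 stayed between 0.62 and 0.73, Vkorc1 between 0.28 and 0.39, and Tcf19 between -0.73 and -0.39.

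**Figure D3:**
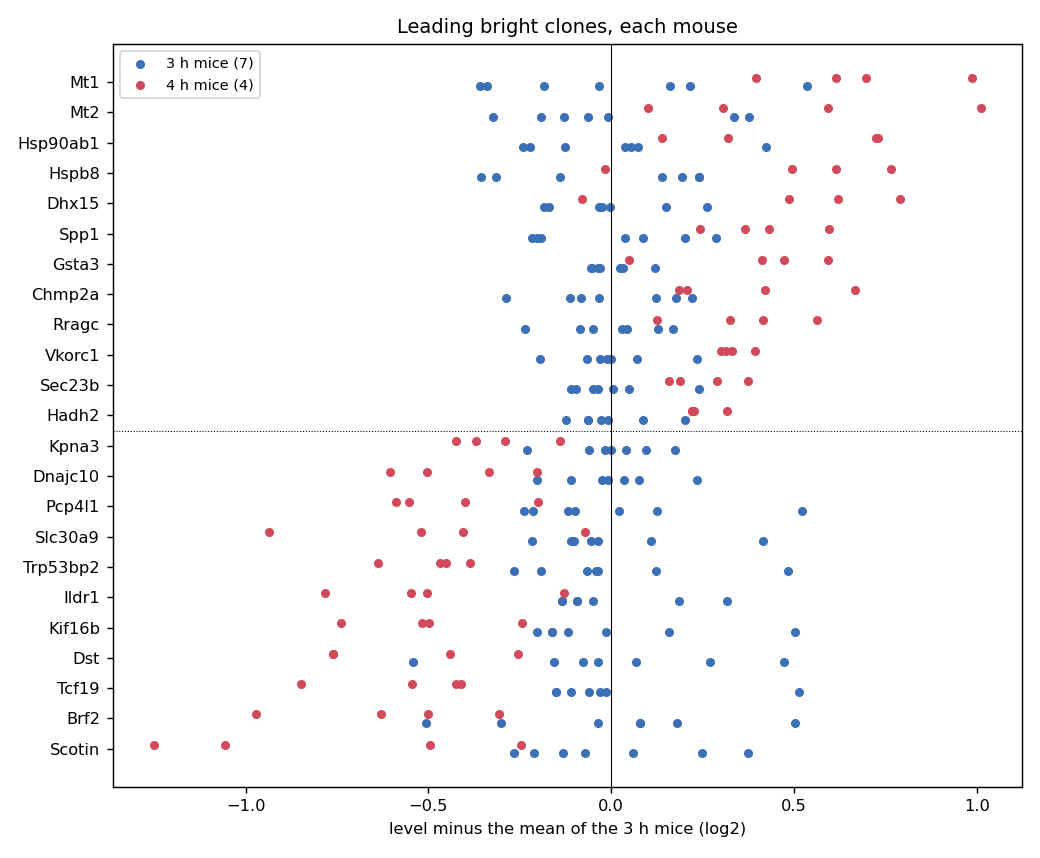
Level of each mouse minus the mean of the 3 h mice (log2, x axis) for 23 leading bright clones (y axis), 3 h in blue and 4 h in red. In the means of the microarrays of a mouse, Vkorc1, Hadh2, Kif16b, Tcf19 and Trp53bp2 separate the 4 h mice from the 3 h mice. Single microarrays overlap between the times for each of these, and for the other 18 clones the mouse means overlap too.

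Where a leading gene had other clones, they mostly showed smaller differences. Among 14 leading genes with 19 other clones, 14 of the 19 differed in the same direction as the leading clone, and the lowest unadjusted p among them was 0.073 in limma. The 4 other clones of Hsp90ab1 were 0.11, 0.18, 0.29 and 0.02 higher at 4 h. The second clone of Tcf19 was 0.18 higher at 4 h, opposite to the first, and that of Scotin 0.03 higher. Clones of 1 symbol need not cover the same part of a transcript.

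Position on the membrane moved with the leading differences. The mean difference of the up to 8 adjacent spots had the same sign as the clone itself for 22 of the 24 leading clones, including 12 of 12 on the lower side, and for 58.6% of all bright clones. Across bright clones the 2 quantities correlated with a Pearson's r of 0.312, a description over 2339 clones that share membranes. Scotin and Slc30a9 are adjacent spots, and so are Dnajc10, Kif16b, Pcp4l1 and Dst in a chain. The 8 neighbours of Scotin had a mean difference of -0.30, all 8 below 0, and those of Dnajc10 one of -0.32, all 8 below 0. Around Vkorc1 the mean was near 0, with 5 of 8 neighbours above 0. The part of position in these differences was not tested.

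The 4 bright clones over 1 log2 unit apart, Ftl1, Chd8, Rpl37a and Q6DI58MOUSE, lie in 1 print block whose values were displaced. The membrane is laid out in blocks of 13 rows by 12 columns. On 6 of the 21 microarrays, 5 of 3 h mice and 1 of a 4 h mouse, the block of rows 14 to 26 and columns 1 to 12 matched the median OA microarray with a Pearson's r between 0.437 and 0.535 in place, and between 0.964 and 0.989 when moved by 1 row. Ftl1, the ferritin light chain, read between 9.45 and 10.20 on these 6 and between 13.80 and 14.15 on the other 15. A second block, of rows 27 to 39, was displaced by 1 row on 2 microarrays of 3 h mice. The first block holds 104 named clones, 19 of them with an unadjusted p under 0.05 in limma, and the second 119, 6 of them. Over all 7625 named clones, 296 (3.88%) had such a p.

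Leaving out the displaced values, so that mouse P8L3 has none in the first block, made the differences of these genes smaller. Ftl1 went from 1.37 to 0.06 and Chd8 from 1.07 to -0.01. Zbtb16, a transcription factor that glucocorticoids induce, went from 0.93 (unadjusted p = 0.032 in limma) to 0.12 (p = 0.580). Rragc, 1 of the 12 leading clones, went from 0.36 to -0.02, and the chemokine Ccl5 at spot 690 from 0.50 to 0.08. The cochaperone Bag2, below the bright threshold, went from 1.11 (p = 0.028) to 0.32 (p = 0.0055). No clone was called in that fit either, with 281 at an unadjusted p under 0.05.

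**Figure D4:**
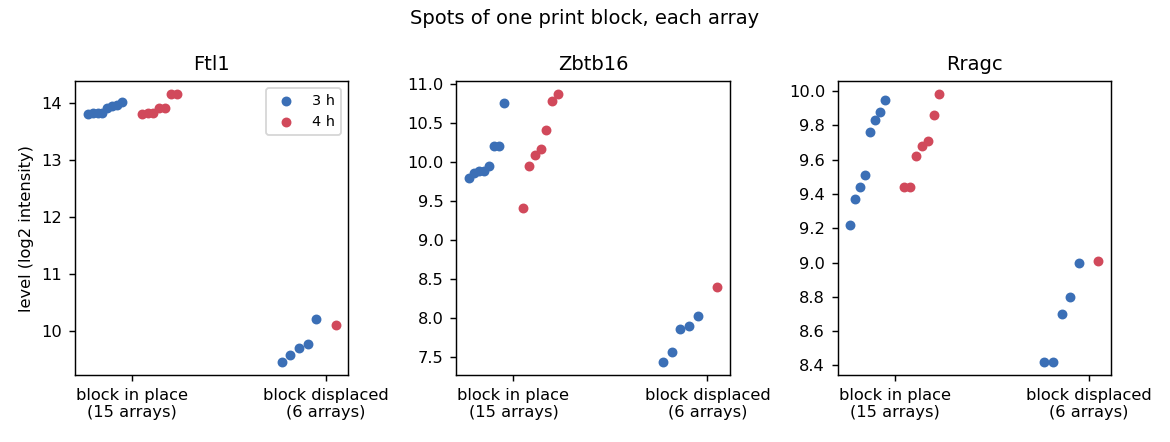
Level of 3 clones of the displaced block (log2 intensity, y axis) on each of the 21 microarrays, split by whether the block was in place or displaced (x axis), 3 h in blue and 4 h in red. Ftl1 lies between 13.80 and 14.15 in place and between 9.45 and 10.20 displaced, whatever the time.

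None of the 27 gene lists held a called clone. The list of glucocorticoid-induced and metal-response genes had 30 clones of 25 genes. At an unadjusted p under 0.05, 5 of them were higher (16.7%) and 0 lower, where all clones gave 2.45% and 1.43%. They were the metallothionein clones at 6004 and 5103, the iron-binding lipocalin Lcn2 (0.35 ± 0.16), the acute-phase protein Saa3 (0.24 ± 0.10) and Zbtb16, which lies in the displaced block. Its median difference was 0.08, next to 0.03 over all clones.

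Heat shock proteins and chaperones had 71 clones, 6 higher (8.45%, next to 2.45% of all clones) and 0 lower (next to 1.43%) at that p, with a median of 0.08. Hspb1, the small heat shock protein Hsp27, lay at 12.30, 10.94, 11.74 and 12.08 in the 4 h mice and between 10.88 and 11.50 at 3 h. The low value again belonged to P11L2, whose 2 microarrays read 9.37 and 12.51. From its second microarray alone, chosen after seeing the data, the difference for Hspb1 was 0.95 ± 0.15 in place of 0.56 ± 0.21, and the adjusted p of 0.179 in limma remained above the threshold. The stress-inducible Hsp90aa1 at spot 3233 was 0.37 ± 0.16 higher and the cochaperone Dnajb1 0.32 ± 0.12. Bag2, in the displaced block, Hspb8 and Hsp90ab1 completed the 6.

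Antioxidant and detoxification enzymes had 48 clones, 5 higher (10.4%, next to 2.45% of all clones) and 0 lower (next to 1.43%), with a median of 0.09. Gclc and Gclm are the catalytic and modifier subunits of glutamate-cysteine ligase, the first enzyme of glutathione synthesis. Gclc lay at 11.09, 11.60, 10.79 and 10.78 at 4 h and between 9.44 and 11.26 at 3 h, a difference of 0.78 ± 0.30. Gclm was 0.30 ± 0.11 higher, and the glutathione S-transferases Gsta4 and Gsta3 were 0.47 ± 0.19 and 0.38 ± 0.10 higher. Gsta4 passed the bright threshold only through its 4 h mean of 9.50, with a mean of 9.03 at 3 h. Gstz1 was the fifth. Keap1 at spot 5366, which represses the factor Nrf2 that drives these genes, reached from 9.54 to 9.85 at 3 h and from 9.86 to 10.04 at 4 h, and its second clone differed by 0.02.

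In the inflammatory lists, chemokines and cytokines had 67 clones, 4 of them higher (5.97%, next to 2.45% of all clones) and 1 lower (1.49%, next to 1.43%), with a median of 0.03. The lower one was the early cytokine Il1b, with a mean of 9.32 ± 0.56 at 3 h and 8.63 ± 0.40 at 4 h, below the bright threshold over the 11 mice. The higher ones were Ccl5 in the displaced block, Ccl17, Il13 and Spp1. Receptors of cytokines and chemokines had 3 higher (5.17%) and 1 lower (1.72%) of 58. The NF-kB and Toll-like receptor pathway had 1 higher and 1 lower of 38 (2.63% each), and interferon-regulated and MHC genes 1 higher (1.41%) and 0 lower of 71. MAP kinases and dual-specificity phosphatases (54 clones) and immediate early genes (29 clones) had none in either direction.

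In bulk lung, the number of cells of a type and the RNA per cell cannot be told apart, which holds for all marker lists. The neutrophil list had 15 clones with a median of 0.05, 8 above 0, and at an unadjusted p under 0.05 it had 2 higher (13.3%) and 1 lower (6.67%). The higher clones were Lcn2 and the integrin Itgam (0.52 ± 0.14), which has means of 5.56 and 6.08, under the bright threshold, and the lower was Il1b. The 2 most abundant members, the calcium-binding proteins S100a8 and S100a9, had means of 12.12 ± 0.53 and 12.71 ± 0.58 at 3 h, and of 11.58 ± 0.67 and 12.09 ± 0.85 at 4 h. Those differences, -0.54 and -0.62, had unadjusted p-values of 0.107 and 0.113 in limma. Macrophage and dendritic cell markers had 3 higher (7.69%) and 0 lower of 39, and T and NK cell markers 1 (2%) and 0 of 50. B and plasma cell markers had 1 higher (2.78%) and 0 lower of 36, and hemoglobin and red cell genes 1 (2.38%) and 0 of 42. All clones gave 2.45% higher and 1.43% lower. The T cell receptor chain Cd3e stayed below the bright threshold with both its clones.

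Lists of lung structure and metabolism were described by the same counts, next to 2.45% higher and 1.43% lower of all clones. Of 30 clones of alveolar and airway epithelium 1 was higher (3.33%), the keratin Krt1-18 at spot 3080 (0.31 ± 0.14). Its second clone, at spot 3904, differed by -0.14. That clone lay at 8.445 in the 4 h mouse P11L2 and at 9.66, 9.655 and 9.59 in the other 4 h mice. At 3 h it reached from 9.215 to 9.69. Endothelial and adhesion genes had 2 higher (4.17%) and 1 lower (2.08%) of 48. Extracellular matrix and proteases had 3 higher (4.48%) and 0 lower of 67, among them the calcification inhibitor Mgp (0.20 ± 0.09). Fatty acid and lipid metabolism had 4 higher (4.94%) and 2 lower (2.47%) of 81, the first including the apolipoprotein Apoe (0.35 ± 0.14) and the medium-chain acyl-CoA dehydrogenase Acadm (0.26 ± 0.11). Hypoxia and glycolysis had 1 higher of 25 (4%) and 0 lower, the circadian clock 0 higher and 1 lower of 19 (5.26%), and the cell cycle 1 and 1 of 102 (0.98% each).

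Cytosolic ribosomal proteins had 3 higher (3.16%) and 0 lower of 95 clones with a median of 0.09. The mitochondrial respiratory chain had 3 higher (3.57%) and 1 lower (1.19%) of 84 with a median of 0.11. All clones gave 2.45% higher and 1.43% lower, with a median of 0.03. Proteasome subunits (41 clones), smooth muscle markers (12), heart muscle markers (4) and fat cell markers (6) had none. Of the 95 ribosomal protein clones, 73 were above 0, a larger share than the 4412 of all 7625 clones. This was not particular to them. Above 0 were 68 of 84 clones of the respiratory chain, 41 of 48 of antioxidant enzymes and 56 of 71 of chaperones. Smaller shares also occurred, such as 20 of 42 for hemoglobin and red cell genes.

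Some transcripts made mainly in liver varied widely among these 11 lungs. Alb1, the albumin gene now named Alb, lay at 12.46, 12.34, 11.14 and 11.66 in the 4 h mice, and at 3 h its lowest level was 9.46, its median 11.04 and its highest 12.89. The range over the 11 mice was 3.43 log2 units, while the 2 microarrays of mouse P2L1, the farthest apart of any mouse for Alb1, read 13.32 and 12.46. The vitamin D-binding protein Gc had a range of 3.12, and Fga, the fibrinogen alpha chain, 3.26. Across the 11 mice Gc, Fga and the hemopexin gene Hpxn correlated with Alb1 with a Pearson's r of 0.976, 0.952 and 0.877. They share the same membranes, and this is a description with no test. The list of such transcripts, made after values had been seen, has 17 clones of 15 genes. Of these, 14 clones were above 0, next to 4412 of all 7625 clones. Their median was 0.26, next to 0.03 over all clones. At an unadjusted p under 0.05 in limma, 1 was higher (5.88%, next to 2.45% of all clones) and 0 lower (next to 1.43%). Clones that vary together across mice do not count separately. Not all follow Alb1. The clone of Cyp2e1 had an r of -0.35, those of Ttr -0.28 and -0.33, and those of Apob -0.01 and -0.43. Azgp1 and Ahsg had an r of 0.27 and 0.32, and the other clones lay between 0.54 and 0.98. The means of Gc, Fga and Hpxn lie below the bright threshold.

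Among the 3 h and 4 h mice, levels of Alb1 differed by the L number of the mouse code. At 3 h, Alb1 had a mean of 12.31 in the 2 mice of L1, 11.23 in the 2 of L2 and 9.94 in the 3 of L3. At 4 h it lay at 12.46 in the mouse of L1, 12.34 in that of L2 and 11.41 on average in the 2 of L3. At 1 h the mice of L2 lay lower, at 9.305 to 10.08, than the mouse of L3, at 11.38. At 1.5 h the mice of L2, at 11.33 to 12.505, lay above those of L3, at 10.23 to 11.25. Within L1 the 3 h mouse P2L1, at 12.89, lay above the 4 h mouse P4L1. Every 4 h mouse lay above every 3 h mouse of its own L number for 99 of 7625 clones (1.3%), Alb1 not among them, and below for 79 (1.04%). Over all mice, Alb1 differed by 0.92 ± 0.53, with an unadjusted p = 0.109 in limma.

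With the L number as a term the 95% interval for Alb1 was narrower, 0.42 to 1.64 around a difference of 1.03, where the fit without it gave -0.23 to 2.07. The adjusted p = 0.935 in limma did not pass. With each microarray as a sample and with the L number and the spelling of the treatment in the titles (AO or OA) as terms, an alternative chosen after seeing the data, Alb1 had a difference of 1.01 with an adjusted p = 0.469 in limma. Whether the L number stands for a day, a cage or a litter is not stated, and its part in the levels was not tested. The 2 serum microarrays at 3 h, normalized together with the OA microarrays, read 9.76 and 10.64 for Alb1, where the OA means were 10.90 at 3 h and 11.86 at 4 h.

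**Figure D5:**
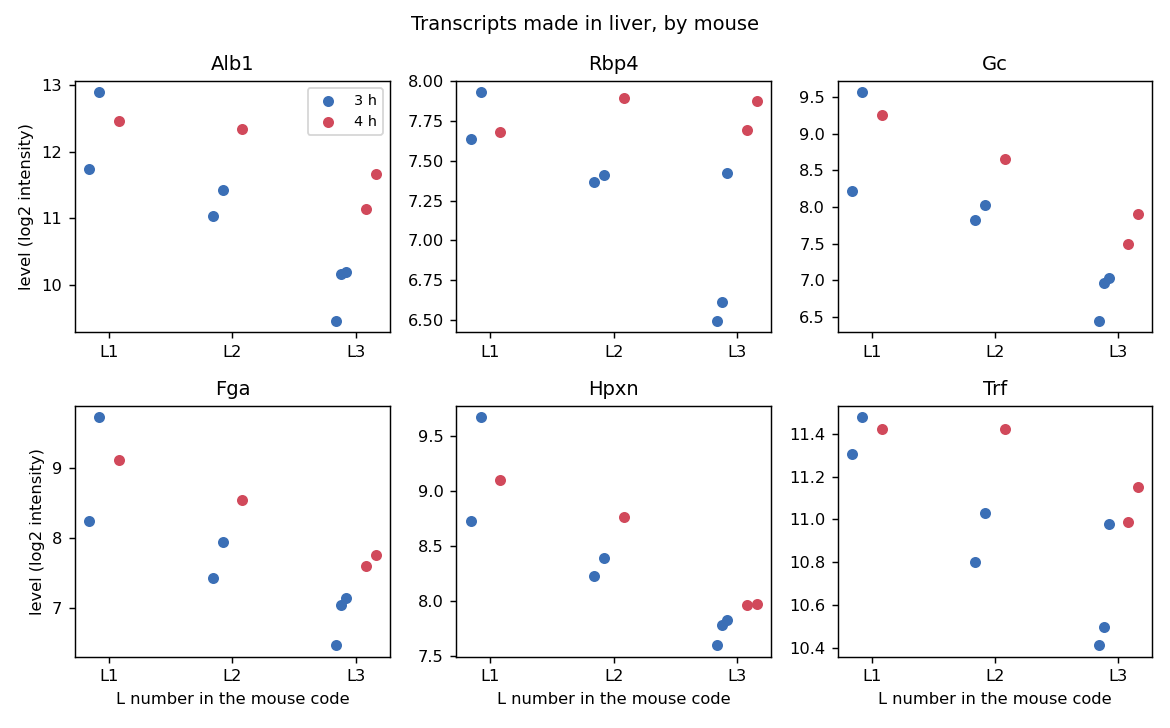
Level of 6 transcripts made mainly in liver (log2 intensity, y axis) by the L number of the mouse code (x axis), 1 point per mouse, 3 h in blue and 4 h in red. Mean levels at 3 h go down from L1 to L3 for all 6. In L2, which has 1 mouse at 4 h, and in L3 the level at 4 h lies above the mean at 3 h for all 6. In L1, which also has 1 mouse at 4 h, Rbp4 and Hpxn differ by -0.10 each, and Alb1, Gc, Fga and Trf lie higher at 4 h. Besides Alb1, the plotted genes correlate with it with a Pearson's r between 0.782 and 0.976. Clones that do not follow Alb1, such as those of Cyp2e1, Ttr and Apob, are not plotted.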

How the data were processed

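The authors deposited, for each microarray, spot intensities quantified from the membrane image with Bzscan2, and a table of log2 values that they had quantile-normalized, after correction for local background and neighbouring spots per the study's methods. The log2 values of the OA columns follow the image intensity at constant spot diameter. Spots were joined to the gene names of the microarray files by spot number. No serum value was subtracted. Microarrays of a mouse were averaged, and 4 mice at 4 h were compared with 7 at 3 h with lmFit and eBayes of limma 3.58.1 in R 4.3.3, with Benjamini-Hochberg adjustment at 5% over 7625 clones. Control spots, empty spots (512) and unnamed spots (1647) were left out. The number of mice, 4 and 7, limits the precision, as does the spread between microarrays. The p-values measure the spread between mouse means, which includes the spread between microarrays of the same mouse. For bright clones the median SD was 0.22 between microarrays of the same mouse and 0.23 between mouse means within a time. The correlation between microarrays of the same mouse within a time was 0.15 by duplicateCorrelation of limma. The share of each source in the p-values was not tested. A few clones that enter the fits and counts are not reported here by name. Symbols are those of the files, with newer RefSeq names given where they differ.

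Named were, in each direction, the called bright clones, filled up to 12 by lowest unadjusted p, bright list members with p under 0.01, and Tnf, Il6, Il10, Il4, Smad7, Mt1, Fkbp5 and Map3k6. Other members of the 27 lists serve as examples at an unadjusted p under 0.05, and clones of displaced blocks, second clones and liver transcripts were added after their values were seen. Members and lists were chosen with earlier results of these data known. A block counted as displaced where moving it by up to 2 rows or columns raised its correlation with the median OA microarray by over 0.2. The fit was tested on simulated data. Alternatives were other normalizations, signals, blocks, variance models and each mouse or microarray left out.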

Additional observations from a re-analysis of the deposited data

Results flagged for a closer look

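Among the 30 named clones, 2 of 60 groups of mice held a value far from the others, and chance alone gives about 1 in 20. Hadh2 in the 4 h mouse P11L2 lay at 9.435, where the other 4 h mice lay between 9.34 and 9.345. Tcf19 in the 3 h mouse P8L3, which has 1 microarray, lay at 10.68, where the other 3 h mice lay between 10.02 and 10.15. Without that mouse the difference of Tcf19 was -0.47.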

How the results depend on the processing

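No clone was called under 14 of the 15 other settings, with any 1 mouse left out or with any 1 of 20 microarrays left out (0 to 0). With the L number and the title spelling as terms and microarrays as samples, 1 clone was called, which is bright, so the count of bright clones was also 1. At an unadjusted p under 0.05 there were between 249 and 440 clones under the other settings, and between 195 (without P13L3) and 406 (without P4L1) with 1 mouse left out, and between 203 and 387 with 1 microarray left out. Of 447 values of the 30 named clones under the other settings, 436 kept their direction, as did 321 of 330 with 1 mouse and 585 of 600 with 1 microarray left out. The exceptions were Rragc without the displaced blocks (-0.018), and 2 clones near 0. Mt1 at spot 3910 turned to 0.027 with median centring, 0.012 with microarrays as samples, 0.014 with quality weights, 0.054 with the title spelling as a term, 0.029 with the L number and spelling, and 0.47 with P11L2 from 1 microarray, and ran from -0.51 to 0.47 with 1 mouse or microarray left out. Il4 turned to 0.072 with the fitted-spot signal, 0.0019 with microarrays as samples, 0.0080 without the microarray of conflicting labels and 0.0033 with quality weights, and ran from -0.097 to 0.067. Their causes were not tested. No paired analysis was possible because the mouse codes are not shared between the times. By their level, clones below the bright threshold cannot be told from empty spots on these membranes.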
